A study of Mus musculus with 4 samples.

Results

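Transcripts of 8 mucin genes, Muc1, Muc2, Muc4, Muc5b, Muc6, Muc13, Muc16 and Muc20, were followed through the cell types of the mouse common bile duct. The genes were taken by name, and their rows in the count matrices were found by Ensembl identifier; all 8 of 8 were present among the 30406 genes that the matrices of both genotypes list. Single cells came from 1 library labelled Prom1_BcatGOF, whose ducts, per the design text of the study, carry a mosaic Ctnnb1 (beta-catenin) gain of function, and from 3 wild-type libraries. These are called GOF and WT 1, WT 2 and WT 3 below, and WT values are given in that order. No group received a treatment. The labels do not describe the gain-of-function construct, its promoter or the share of recombined cells, give no age or strain, and do not say whether a library pooled animals. Whether separate animals gave the WT libraries is not stated either. The p-values therefore measure only the spread between these libraries, which may be technical, and the single GOF library was assumed to vary like the WT libraries. Statements that GOF lay below or above all WT values, or that classes did not overlap, describe the printed values only. The share of all genes with such a position was not counted.

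Mucins are large proteins whose repeated serine- and threonine-rich stretches carry dense O-linked sugars. Gel-forming mucins such as those of Muc2, Muc5b and Muc6 are secreted and build mucus, while membrane-bound mucins such as those of Muc1, Muc4, Muc13, Muc16 and Muc20 stay on the cell surface as part of the glycocalyx. In the bile duct wall, surface cholangiocytes line the lumen, peribiliary glands open into it, and mesothelium covers the outside.

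Cells were assigned to classes by marker genes that hold no mucin. Gland cells were epithelial cells with a UMI (1 counted molecule) of Gkn3, a gastric-type mucous gene, and a raised score for the gland markers, and surface cells were epithelial cells with neither Gkn3 nor Clca1 and low gland and tuft scores. Goblet-type cells carried Clca1, a goblet cell secretory gene, with at least 3 goblet markers. These classes held 190 GOF gland cells and 25, 37 and 48 WT gland cells. There were 4177 GOF surface cells and 2770, 1407 and 791 WT surface cells. Goblet-type cells were rare, with 5 in GOF and 23, 4 and 10 in WT. Another 541 GOF and 154, 66 and 72 WT epithelial cells lay between the gates and were left out of these classes. A UMI of Gkn3 was seen outside the gland gate in 520 GOF and 5, 34 and 40 WT epithelial cells. Mesothelial cells numbered 316 in GOF and 84, 54 and 33 in WT, out of 9229 GOF cells and 4334, 2415 and 2058 WT cells in all. Gkn3 was required by the gland gate and Upk3b was among the mesothelial gate markers, so their levels describe the gates. Gkn3 reached 5963 UMIs of the gene per 1e6 UMIs (CPM) in GOF gland cells and 2654, 4527 and 1888 CPM in WT gland cells. Upk3b, a uroplakin gene that marks mesothelium, reached 768 CPM in GOF mesothelial cells and 1416, 1128 and 940 CPM in WT mesothelial cells, against at most 2.30 CPM in gland or surface cells. Goblet-type markers were not limited to goblet-type cells. In gland cells the 8 goblet-type markers summed to 1527 CPM in GOF and 8083, 18092 and 25575 CPM in WT, mostly Spink4, against 19402 CPM in GOF and 6446, 8367 and 12952 CPM in WT for the 5 gland markers. In surface cells the goblet-type markers summed to 2442 CPM in GOF and 25718, 21060 and 10035 CPM in WT. The goblet name held best in WT 1, where 19 of 23 cells had a UMI of Atoh1, the transcription factor of secretory lineages, and in WT 3, with 8 of 10; none of the 5 GOF and 4 WT 2 cells had one. Bpifb1, a listed gland marker, had no UMI in gland cells of any library. The surface class rests on the absence of the other classes' markers: its own 6 listed markers summed to 190 CPM in GOF surface cells and 147, 201 and 143 CPM in WT surface cells, against 171 CPM in GOF gland cells and 66.6, 97.3 and 153 CPM in WT gland cells.

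The libraries differed in depth, with 113596685 UMIs in GOF and 43737469, 17358894 and 9558637 in WT. The GOF matrix was written by Cell Ranger 7.0.0 and the WT matrices by version 3.0.2, so genotype and read processing cannot be told apart by design. The median share of mitochondrial UMIs per barcode was 2.99% in GOF and 10.1%, 11.5% and 14.8% in WT, so it moves with genotype. A limit of 10% mitochondrial UMIs, run as an alternative, left 4901 of 5067 GOF epithelial cells and 699 of 3053, 114 of 1576 and 23 of 961 WT epithelial cells. Of the surface cells, 17 of 791 were left in WT 3. Between 5 and 19 cell barcodes were shared by any pair of libraries. WT 3 stood apart from the other WT libraries in its high Muc6 and low Muc4 levels, and values without it are given where they alter a result. All levels are CPM, UMIs of a gene over all UMIs of the class. In 3′ counting this does not depend on transcript length in the way full-length reads do, but levels of different genes were not calibrated against each other, and fewer cells and less RNA per cell cannot be separated in a summed level.

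The genes lie on 4 chromosomes of GRCm38, all of them protein-coding. Muc6 (ENSMUSG00000048191; chromosome 7, 141633456 to 141655319, minus strand) and Muc2 (ENSMUSG00000025515; 141690340 to 141754693, plus strand) lie close together, with Muc5b further along (ENSMUSG00000066108; 141839070 to 141873084, plus strand). Muc1 (ENSMUSG00000042784) is compact, at chromosome 3, 89229057 to 89233381, with 1.98 kb of intron. Muc16 (ENSMUSG00000109564), on chromosome 9 from 18495455 to 18674530, is the longest of the 8, with 153 kb of intron. Muc13 (ENSMUSG00000022824) lies on chromosome 16 from 33794037 to 33819934, plus strand, and the opposite-strand gene Gm15657 covers 2838 bases of its 5′ end. Muc4 (ENSMUSG00000079620; chromosome 16, 32735886 to 32782391, plus strand) and Muc20 (ENSMUSG00000035638; 32777419 to 32797435, minus strand) overlap at their 3′ ends over 4973 bases, of which 627 are exonic in both. The strand setting of the counting is not given in the sources used here, so the split of reads between Muc4 and Muc20 is uncertain, the more so because the assay reads 3′ ends.

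The 250 bases before the RefSeq transcription start (GRCm38.p6) are shown for the 5 members that marked a cell class or differed between gland and surface cells, because these are the promoters of genes that were on in one duct cell type and nearly off in another. RefSeq windows were found for 7 of 8 members, and for Muc13 the first of its 2 windows is shown. Capitals mark matches to any of 8 motifs, each searched on both strands. These were TATAAA for the core promoter box, AGATAA for the GATA factors, TGTTTAC for the forkhead factors of the FOXA type, CACCTG for the E-box proteins, GGGCGG for the GC box of Sp1, CTTTGAA for the Tcf partners of beta-catenin, TGACTCA for the AP-1 dimers, and the consensus decamer of NF-kB.
Muc6, chr7:141655394-141655643, minus strand: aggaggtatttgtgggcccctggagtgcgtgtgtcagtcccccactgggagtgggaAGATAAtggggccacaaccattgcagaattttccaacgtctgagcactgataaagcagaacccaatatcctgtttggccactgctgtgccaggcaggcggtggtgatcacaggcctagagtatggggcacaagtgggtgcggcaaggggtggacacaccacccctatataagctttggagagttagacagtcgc
Muc2, chr7:141690090-141690339, plus strand: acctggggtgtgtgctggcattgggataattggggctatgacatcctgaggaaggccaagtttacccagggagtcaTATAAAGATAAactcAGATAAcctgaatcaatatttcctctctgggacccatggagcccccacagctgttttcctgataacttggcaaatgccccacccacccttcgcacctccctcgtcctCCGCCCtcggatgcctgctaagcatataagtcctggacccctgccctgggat
Muc4, chr16:32735636-32735885, plus strand: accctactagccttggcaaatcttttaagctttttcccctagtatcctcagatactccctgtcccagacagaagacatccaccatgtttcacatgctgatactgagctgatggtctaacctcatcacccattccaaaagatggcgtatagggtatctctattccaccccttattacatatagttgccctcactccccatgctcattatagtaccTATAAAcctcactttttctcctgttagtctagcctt
Muc13, chr16:33793787-33794036, plus strand: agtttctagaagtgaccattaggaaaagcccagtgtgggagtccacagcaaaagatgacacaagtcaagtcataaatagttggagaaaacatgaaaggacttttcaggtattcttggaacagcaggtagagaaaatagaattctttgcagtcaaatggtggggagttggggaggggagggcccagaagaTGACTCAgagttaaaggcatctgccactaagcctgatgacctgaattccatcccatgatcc
Muc16, chr9:18674604-18674853, minus strand: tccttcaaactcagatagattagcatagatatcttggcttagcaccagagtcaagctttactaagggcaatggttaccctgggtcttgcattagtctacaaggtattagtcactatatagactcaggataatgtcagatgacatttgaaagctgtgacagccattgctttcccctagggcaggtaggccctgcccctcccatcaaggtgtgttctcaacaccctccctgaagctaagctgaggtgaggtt
The Muc4 window held a TATA box starting 36 bases before the start, and Muc2 held one at 174 bases, which overlaps the first of its 2 GATA matches. A TATA box was found in 12.4% of 32851 such windows of the genome and a GATA match in 9.99%. Muc6 held 1 GATA match, and Muc13 held 1 AP-1 match, a motif found in 4.46% of windows. No motif searched was found in the Muc16 window, and none of the 5 windows held the TCF, FOXA, E-box or NF-kB letters (4.46%, 3.17%, 17.2% and 0.140% of windows), while the GC box (32.7%) was found in Muc2. These are letter matches and not binding sites.

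**Figure D1:**
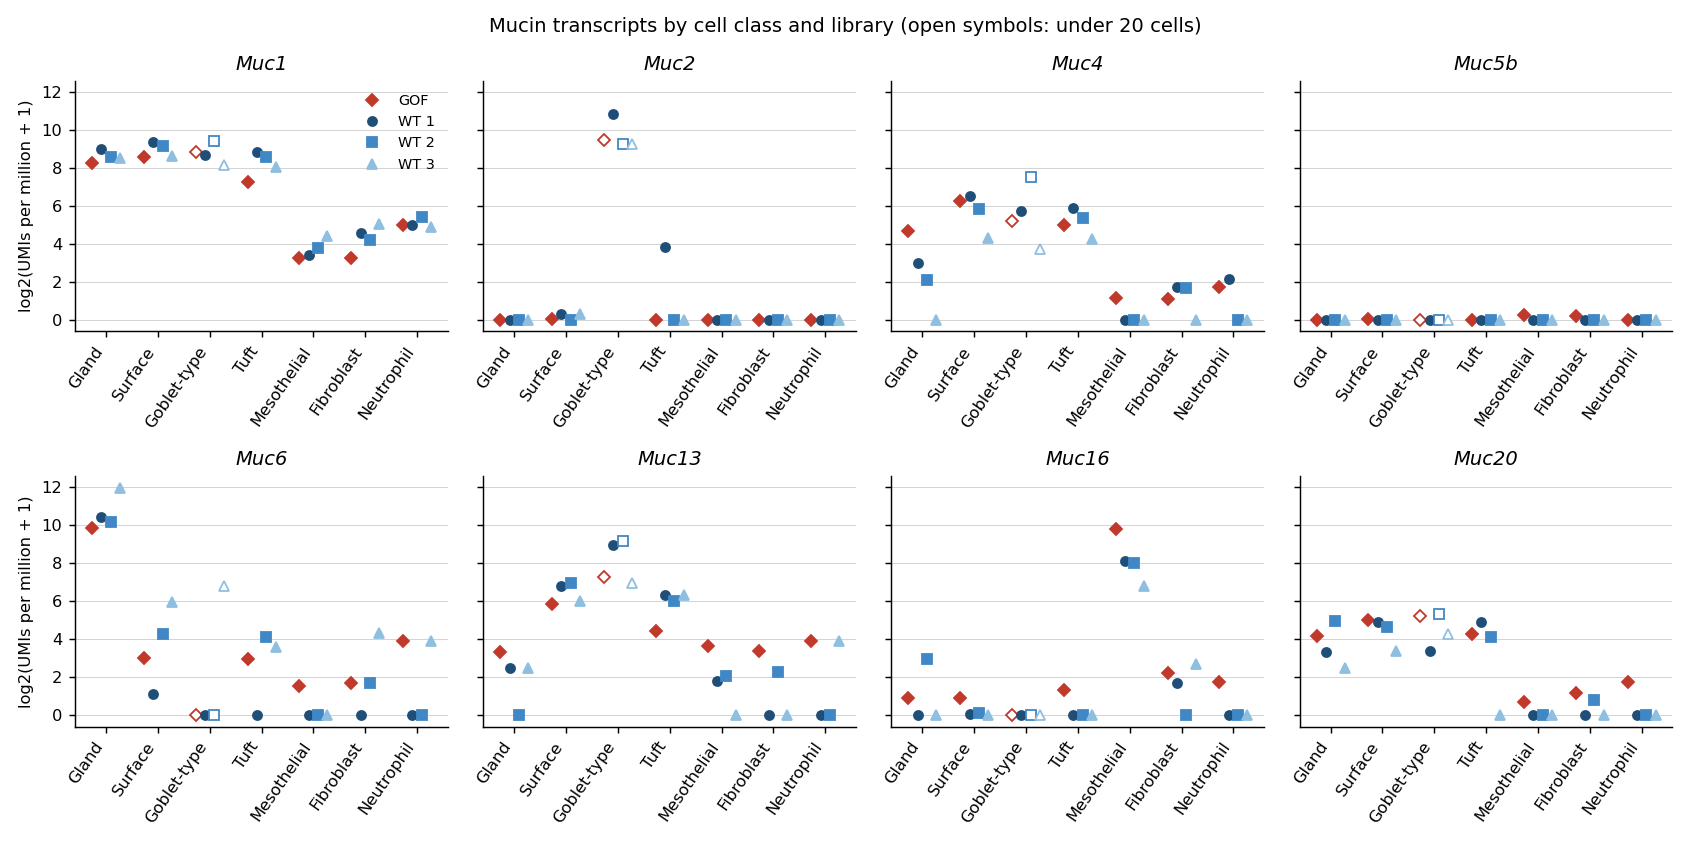
Levels of the 8 mucins, as log2(CPM + 1), in 7 cell classes of the GOF library (red diamonds) and the 3 WT libraries (blue); open symbols stand for classes under 20 cells. Muc6 peaks in gland cells, Muc2 in goblet-type cells and Muc16 in mesothelial cells, Muc1 lies above 100 CPM in every epithelial class shown, and Muc5b stays near 0.

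The leading mucin differed between gland, surface, goblet-type and mesothelial cells. Of the UMIs of the 8 genes, Muc6 made up 72.3% in GOF gland cells and 72.3%, 73.6% and 91.4% in WT gland cells. In surface cells the leading mucin was Muc1, with 68.4% in GOF and 73.9%, 72.5% and 72.2% in WT. In goblet-type cells Muc2 led in GOF (51.3%), WT 1 (65.0%) and WT 3 (52.9%), but not in WT 2, where Muc1 held 33.1% and Muc2 28.8% of 160 UMIs. Muc16 made up 97.4% of the mucin UMIs of GOF mesothelial cells and 95.7%, 94.2% and 84.2% of those of WT mesothelial cells. Tuft cells, chemosensory epithelial cells, were also led by Muc1, at 66.3% in GOF and 71.6%, 73.8% and 70.7% in WT.

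**Figure D2:**
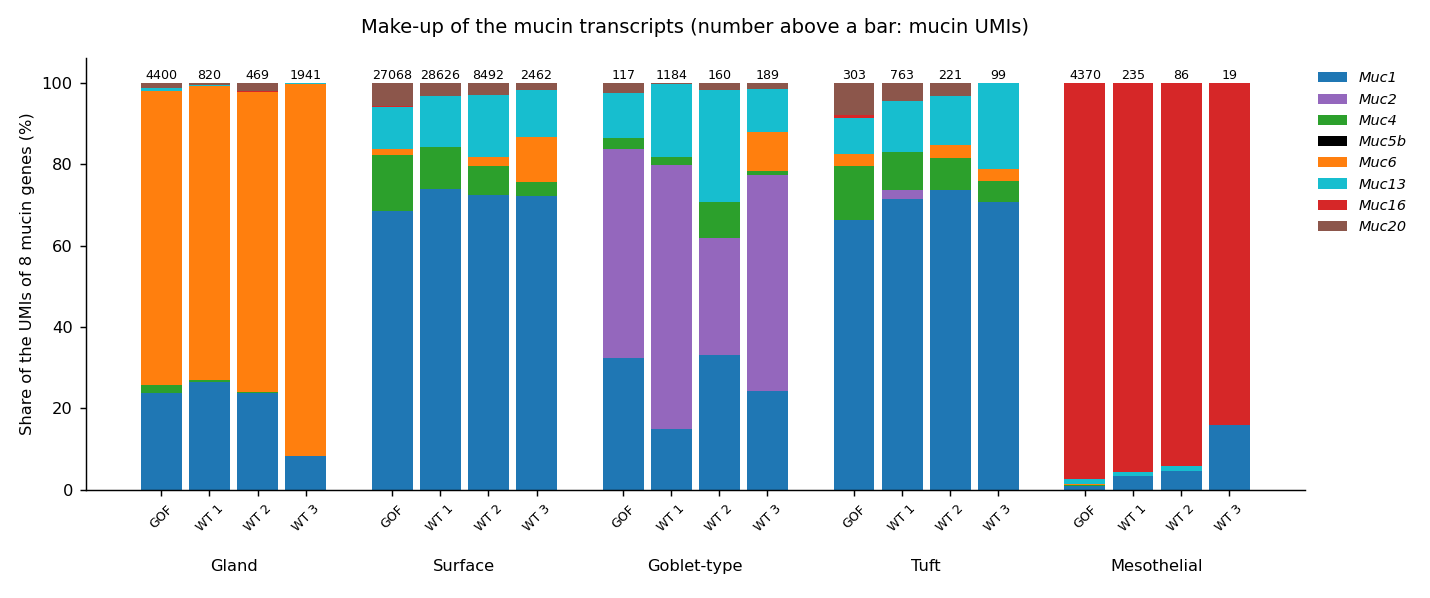
Share of each mucin among the UMIs of the 8 genes, in percent, for each class and library, with the number of mucin UMIs above each bar. Muc6 fills over 70% of every gland bar, Muc16 over 80% of every mesothelial bar, and Muc1 over 65% of every surface bar.

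Gland cells differed from surface cells in 3 of the 5 mucins that could be tested in WT: Muc6 was higher, and Muc4 and Muc13 were lower. Muc4 and Muc13, with 4 gland UMIs each, passed the low-count filter only through surface cells, so a fall was the only call open to them. Across all 10137 genes tested, 5.81% were called, 3.18% higher and 2.63% lower in gland cells, with an adjusted p under 0.05 in edgeR's quasi-likelihood test on summed UMIs, Benjamini-Hochberg adjusted, with the library as a block. Muc6, the gel-forming mucin of gastric-type mucous glands, stood at 1361, 1157 and 3988 CPM in WT gland cells, against 1.15, 18.6 and 61.5 CPM in WT surface cells. The 2 classes did not overlap. The edgeR log2 fold change was 7.14 (SE 0.63, edgeR adjusted p = 2.98e-06), and WT 3 was the highest library in both classes. Gland cells held 87.9%, 44.7% and 63.1% of all Muc6 UMIs of the kept cells in WT, and 81.7% in GOF. The epithelial cells between the gates, which this comparison leaves out, averaged 338 ± 349 CPM of Muc6 in WT (SD, n = 3). Their WT values ran from 27.4 to 717 CPM, and the GOF value was 12.8 CPM.

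Muc13, a short membrane mucin of gut and duct epithelium, showed the opposite pattern, with 4.59, 0 and 4.49 CPM in WT gland cells and 111, 120 and 64.0 CPM in WT surface cells. All gland values rested on 4 UMIs in total, against 5133 UMIs in surface cells. The log2 fold change was -4.80 (SE 0.43, edgeR adjusted p = 3.43e-06); with classes made from clusters, which mix gland with other cells, it was -0.98 (edgeR adjusted p = 0.425). Muc4, a large membrane mucin described in rat cells as a ligand of ErbB2, stood at 6.89, 3.35 and 0 CPM in WT gland cells and at 91.1, 55.9 and 18.6 CPM in WT surface cells, again without overlap. Its log2 difference was -4.03 (SE 0.44, edgeR adjusted p = 2.26e-05), and without the library block the adjusted p was 0.0638.

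Muc1, the widely expressed epithelial membrane mucin whose cytoplasmic tail can bind beta-catenin, did not pass the test. It measured 500.5, 376 and 364 CPM in WT gland cells and 657, 576 and 399 CPM in WT surface cells, lower in gland cells of all 3 libraries, with an edgeR log2 fold change of -0.36 (SE 0.19). Its edgeR adjusted p was 0.381, and 0.0391 to 0.858 over 10 alternatives, lowest without WT 3. Muc20, a membrane mucin described as a partner of the Met receptor, measured 9.18, 30.2 and 4.49 CPM in WT gland cells and 29.0, 23.5 and 9.43 CPM in WT surface cells, ranges that overlap (log2 fold change -0.63, SE 0.43, edgeR adjusted p = 0.544, and 0.0498 to 0.997 over 10 alternatives, lowest with classes made from clusters). Muc2, Muc5b and Muc16 were too low in both classes to test: Muc2 had no UMI in gland cells of any library and 9 UMIs in WT surface cells.

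The genes for making and packing mucus were counted from lists of pathway members. In the list on folding and granule secretion, 8 of 23 tested genes rose in gland cells and none fell, where 3.18% of all genes rose and 2.63% fell, with a median log2 fold change of 0.45 beside -0.02 over all genes. Agr2, a disulfide isomerase needed for mucin folding, averaged 5265 ± 3819 CPM in WT gland cells and 299 ± 79.0 CPM in WT surface cells (SD, n = 3 each). The log2 difference was 3.95 (SE 0.28, edgeR adjusted p = 3.13e-07). Creb3l4, a transcription factor of secretory cells, rose by 4.12 (98.6 ± 10.3 CPM in gland and 6.60 ± 3.88 CPM in surface cells), Foxa3 by 3.66 and Ern2, the stress sensor kinase of mucous epithelia, by 1.83 on the log2 scale, all with edgeR adjusted p under 0.05. Of the O-glycosylation enzymes, 3 of 20 tested rose and 1 fell, beside the same background. Gcnt3, which branches mucin sugars, averaged 334 ± 200 CPM in gland and 72.7 ± 27.2 CPM in surface cells (SD, n = 3 each), a log2 fold change of 2.16, and Galnt12, which starts O-glycan chains, rose by 1.86. Among sheddases and surface partners 1 of 20 tested rose and 2 fell. Lgals3, a galectin that binds mucin sugars, averaged 8.97 ± 9.72 CPM in gland and 82.4 ± 35.5 CPM in surface cells, a log2 fold change of -3.37. Its gland values were 2.30, 20.1 and 4.49 CPM, so this fall rests on few gland UMIs.

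In GOF gland cells Muc6 and then Muc1 again led, and none of the 4 members tested passed the test against WT, where 11.4% of 7023 genes were called, 8.67% higher and 2.69% lower. Muc6 stood at 928 CPM in GOF gland cells, below the WT values of 1361, 1157 and 3988 CPM, a log2 difference of -1.47 (SE 0.60, edgeR adjusted p = 0.137). Over 9 alternatives the adjusted p ran from 0.000383 without WT 1 to 0.332 without WT 3, where the log2 fold change was -0.59; it was also under 0.05 with no filter on low counts (0.0159). Muc4 measured 24.2 CPM in GOF gland cells, above the WT values of 6.89, 3.35 and 0 CPM, on 83 GOF UMIs and 4 WT UMIs (log2 fold change 2.61, SE 1.04, edgeR adjusted p = 0.124; 0.00486 with no filter on low counts, 0.0389 with classes made from clusters, and up to 0.501 over 8 alternatives). In gland cells Muc4 passed the low-count filter only through the GOF library, so a rise was the only call open to it. The gland-to-surface difference of Muc4 was less negative in GOF by 2.51 on the log2 scale (SE 0.66). That comparison was chosen after the values were seen, had an edgeR adjusted p of 0.0563 where 0.257% of genes were called, 0.166% higher and 0.0907% lower, and so did not pass either; over 9 alternatives the adjusted p ran from 0.0388, with called doublets kept, to 1. Muc13, too low to test, measured 9.04 CPM in GOF and 4.59, 0 and 4.49 CPM in WT gland cells. Muc1 measured 305 CPM in GOF and 500.5, 376 and 364 CPM in WT gland cells (log2 fold change -0.64, edgeR adjusted p = 0.300), and Muc20 16.6 CPM in GOF and 9.18, 30.2 and 4.49 CPM in WT (0.12, edgeR adjusted p = 0.954).

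To compare shares of cells with a UMI, cells were thinned at random to 2000 UMIs, and those with fewer were left out (14 GOF and 0, 5 and 4 WT gland cells). Muc6 was then seen in 42.6% of 176 GOF gland cells (exact Clopper-Pearson 95% interval 35.2 to 50.3%) and in 60.0%, 68.8% and 84.1% of 25, 32 and 44 WT gland cells, with intervals of 38.7 to 78.9%, 49.99 to 83.9% and 69.9 to 93.4%. Unthinned, the shares were 61.6% in GOF and 72.0%, 75.7% and 85.4% in WT. In surface cells the thinned share was 1.28% in GOF and 0.151%, 2.09% and 4.30% in WT. In lymphoid cells, which should lack the gene, it was 1.11% of 180 GOF cells and 0 of 71 WT 1 cells, which allows up to 4.23%; fewer than 20 lymphoid cells each of WT 2 and WT 3 reached 2000 UMIs. Median depths of those cells before thinning were 2938 UMIs in GOF lymphoid and 12896 UMIs in GOF gland cells. As levels, Muc6 measured 6.93 CPM in GOF surface cells. It was lower in GOF T, NK and innate lymphoid cells, at 3.40 CPM, and in GOF macrophages, monocytes and dendritic cells, at 2.86 CPM. It was higher in the 32 GOF B cells, at 19.7 CPM, and also in GOF neutrophils. The GOF surface level of Muc6 thus lay within the range of these immune classes. All intervals and limits cover counting error only. Muc1 was seen in 50.6% of 3604 GOF surface cells and in 71.7%, 64.0% and 50.3% of 2643, 1243 and 581 WT surface cells, against 6.11% of GOF and 1.41% of WT 1 lymphoid cells.

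**Figure D3:**
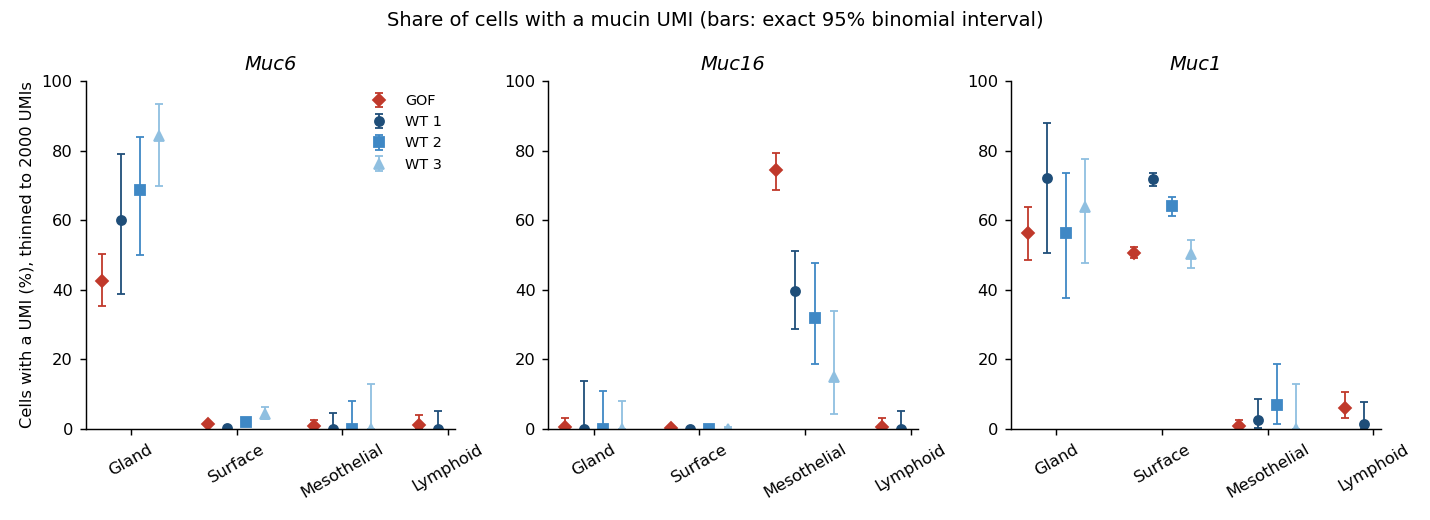
Percent of cells with at least 1 UMI after thinning to 2000 UMIs, for Muc6, Muc16 and Muc1 in gland, surface, mesothelial and lymphoid cells; red diamonds are GOF, blue symbols the WT libraries, and bars the exact 95% binomial interval. Muc6 is seen in 42.6% of GOF gland cells and 60.0 to 84.1% of WT gland cells, and Muc16 in 74.3% of GOF mesothelial cells and 14.8 to 39.5% of WT mesothelial cells.

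Goblet-type cells carried nearly all Muc2, the gel-forming mucin of intestinal goblet cells. They held 98.4% of the 61 Muc2 UMIs of GOF and 96.5%, 100% and 99.0% of the 798, 46 and 101 Muc2 UMIs of WT. The level was 714 CPM in GOF goblet-type cells and 1810, 598 and 607 CPM in WT goblet-type cells, against 0.0201 CPM in GOF surface cells and 0.248, 0 and 0.225 CPM in WT surface cells. A single GOF cell held all 60 of the goblet-type Muc2 UMIs of that library, and the other 4 had none. In WT, 21 of 23, 2 of 4 and 6 of 10 goblet-type cells had a Muc2 UMI, with a median of 32 UMIs per cell in WT 1. Because 2 WT libraries had under 20 such cells, the class was not tested. Muc13 was also high there, with 155 CPM in GOF and 498, 572 and 121 CPM in WT goblet-type cells. Over the pooled WT cells Muc13 was 3.82 times its surface level in goblet-type cells (exact 95% counting interval 3.37 to 4.31). Muc6 was at 0 in goblet-type cells of GOF, WT 1 and WT 2 and at 109 CPM, from 18 UMIs, in WT 3, where Gkn3 was at 261 CPM in the same cells.

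In epithelium as a whole, Muc2 measured 0.951 CPM in GOF and 22.3, 3.75 and 16.7 CPM in WT. The GOF value lay below all WT values, a log2 difference of -4.28 (SE 1.13, edgeR adjusted p = 0.0532). It stayed above 0.05 in 4 of the 11 alternatives (up to 0.0562) and was 0.00284 without WT 2 and 0.0389 without WT 3. It was also under 0.05 with no filter on low counts (0.0245), with called doublets kept (0.0461), at 10% or less mitochondrial UMIs (2.95e-05), with the stricter gate (0.0495) and in DESeq2 (1.74e-05). Goblet-type cells made up 5 of 5067 GOF epithelial cells and 23 of 3053, 4 of 1576 and 10 of 961 WT epithelial cells.

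Muc5b, a gel-forming mucin of airways and other mucous glands, was close to absent from the counts. It had 4 UMIs among the kept GOF cells and none in any WT library. Among epithelial cells, 2 of 5067 had a UMI in GOF, and 0 of 3053, 1576 and 961 in WT allow shares of cells with a UMI of up to 0.0983%, 0.190% and 0.312%. These limit cells with a UMI, not cells expressing the gene.

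In WT surface cells, Muc1 had the highest mean level, followed by Muc13, Muc4, Muc6 and Muc20, while Muc4 stood above Muc13 in GOF. The WT ranges of each neighbouring pair from Muc13 to Muc20 overlapped. Muc1 measured 372 CPM in GOF surface cells and 657, 576 and 399 CPM in WT surface cells, a mean of 544 ± 132 CPM (SD, n = 3). Its log2 difference was -0.87 (SE 0.33, edgeR adjusted p = 0.114), with none of the 6 members tested called, beside 16.8% of 15391 genes, 12.8% higher and 4.04% lower. The GOF value lay below all WT values, a position that was not counted over all genes and is no test. Over 11 alternatives the adjusted p ran from 0.0344, without WT 3, to 0.462, and DESeq2 gave 0.0430. Muc13 measured 57.1 CPM in GOF and 111, 120 and 64.0 CPM in WT surface cells, again below all WT values (log2 fold change -1.11, SE 0.35, edgeR adjusted p = 0.0785). For Muc13 the adjusted p was 0.00826 without WT 3, 0.0296 at 10% or less mitochondrial UMIs and 0.0252 in DESeq2, with 0.137 as the highest of 10 alternatives. Neither gene passed the test over all libraries.

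Muc4 and Muc20 lay inside or near the WT spread. Muc4 measured 75.9 CPM in GOF and 91.1, 55.9 and 18.6 CPM in WT surface cells (log2 fold change 0.11, SE 0.68, edgeR adjusted p = 0.922), a difference far within its own error. Muc20 measured 30.9 CPM in GOF and 29.0, 23.5 and 9.43 CPM in WT surface cells (0.22, SE 0.49, edgeR adjusted p = 0.780). Muc16 had 42 UMIs in GOF surface cells, at 0.843 CPM, and 1, 1 and 0 UMIs in WT, a log2 difference of 3.82 that did not pass the test (SE 1.12, edgeR adjusted p = 0.0655; 0.0406 with called doublets kept, and up to 0.311 over 8 alternatives). Other GOF classes outside the mesothelium had Muc16 at 10.2 CPM (T, NK and innate lymphoid), 3.67 CPM (fibroblasts) and 1.18 CPM (macrophages, monocytes and dendritic cells). It was at 0 CPM in GOF smooth muscle cells and pericytes, lymphatic endothelial and B cells. Muc16 passed the low-count filter in surface cells only through the GOF library, so a rise was the only call open to it. Whether the surface UMIs came from surface cells was not tested.

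In surface cells Muc6 measured 6.93 CPM in GOF and 1.15, 18.6 and 61.5 CPM in WT, inside the WT range (log2 difference -2.23, SE 1.76, edgeR adjusted p = 0.414; 0.0164 without WT 1 and up to 0.729 over 10 alternatives).

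Scaling mattered for the genotype comparison: the median log2 fold change over all genes was 0.03 with TMM and 0.36 by library totals in surface cells, and 0.00 with TMM and 0.36 by library totals in epithelial cells. Genes with long introns were higher in GOF. In surface cells the median log2 fold change was 1.33 over 1799 genes with more than 100 kb of intron and -0.36 over 3467 genes with at most 5 kb, the group of Muc1. With the test run on genes with at most 5 kb of intron alone, the log2 fold change of Muc1 in surface cells was -0.50 (edgeR adjusted p = 0.431). Whether intronic reads were counted in either genotype is not given in the sources used here.

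Surface cells were not uniform in Muc13 and Muc4. They were split by UMIs of Nos2 or Cxcl5, genes induced in inflamed epithelium, and of Car4, a carbonic anhydrase gene, or Slc2a2, a glucose transporter gene, both from the surface marker list, a split chosen after the data were seen and given without a test. Muc13 measured 122 CPM in GOF cells with Nos2 or Cxcl5 alone and 33.4 CPM in GOF cells with Car4 or Slc2a2 alone. The same pair of values was 153 and 8.19 CPM in WT 1 and 259 and 3.94 CPM in WT 2, while WT 3 had 68.8 and 51.6 CPM. Muc4 measured 105 and 68.3 CPM in GOF, 114 and 8.19 CPM in WT 1, 105 and 10.5 CPM in WT 2, and 12.1 and 16.3 CPM in WT 3. The contrast was thus wide in WT 1 and WT 2, narrower in GOF, and for Muc4 turned round in WT 3, where the values rest on 6 and 17 UMIs. Muc1 varied little, at 444 and 359 CPM in GOF and 658 and 670, 651 and 552, and 423 and 371 CPM in WT. Cells with Nos2 or Cxcl5 alone made up 16.5% of GOF surface cells and 58.4%, 37.0% and 10.4% of WT surface cells. Cells with neither pair made up 44.9% in GOF and 5.81%, 27.6% and 63.8% in WT. The split used unthinned cells, with median depths of 7615 UMIs in GOF and 7625, 3537 and 2662 UMIs in WT surface cells. How far depth sets these shares was not tested.

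**Figure D4:**
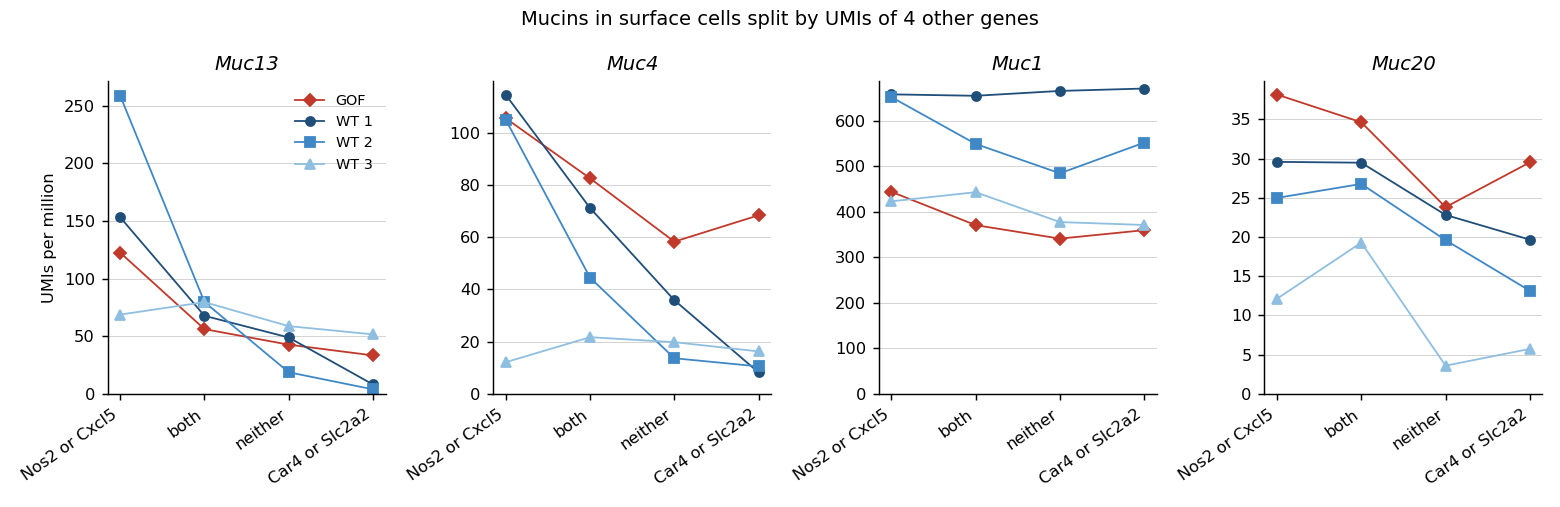
CPM of Muc13, Muc4, Muc1 and Muc20 in surface cells with a UMI of Nos2 or Cxcl5 alone, of both pairs, of neither, or of Car4 or Slc2a2 alone, in the GOF library (red) and the WT libraries (blue). Muc13 and Muc4 fall towards the Car4 or Slc2a2 cells in WT 1 and WT 2, while Muc1 stays between 341 and 670 CPM in all points.

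Over all epithelial cells none of the 7 members tested was called between GOF and WT, where 16.9% of 15750 genes were called, 12.5% higher and 4.46% lower. Muc1 measured 361 CPM in GOF and 646, 563 and 387 CPM in WT epithelium (log2 fold change -0.92, SE 0.32, edgeR adjusted p = 0.102), and Muc13 51.6 CPM in GOF and 110.5, 115 and 58.7 CPM in WT (-1.23, SE 0.38, edgeR adjusted p = 0.0794). Both were under 0.05 in DESeq2 (0.0354 for Muc1 and 0.0182 for Muc13) and in edgeR without WT 3 (0.0318 and 0.00641), and reached 0.398 and 0.179 in other alternatives. Muc6 varied most between the WT libraries, with 57.0 CPM in GOF and 18.7, 61.9 and 427 CPM in WT, so its log2 fold change of -1.96 had an SE of 1.71 (edgeR adjusted p = 0.451, and 0.0449 to 0.842 over 11 alternatives, lowest at 10% or less mitochondrial UMIs). Without WT 3 it was 0.18. Muc4 (0.07) and Muc20 (0.16) were within their errors.

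Among the genes that build and cut mucins, 6 of 28 O-glycosylation genes tested rose in GOF epithelium and 2 fell, beside 12.5% and 4.46% of all genes, with a median log2 fold change of -0.01 beside 0.00 over all genes. St3gal4, a sialyltransferase, stood at 314 CPM in GOF and 71.7, 89.4 and 55.2 CPM in WT epithelium (log2 fold change 1.77, SE 0.24, edgeR adjusted p = 0.00872). Galnt2, which starts O-glycan chains, stood at 31.8 CPM in GOF and 0.365, 0.326 and 0.661 CPM in WT, and was higher in GOF by 5.13 to 5.93 on the log2 scale in all 4 classes compared. In WT it was at 0, 0 and 2.25 CPM in gland cells and 1.22, 0 and 0 CPM in mesothelial cells. In those classes it passed the low-count filter only through the GOF library, so a rise was the only call open to it. Surface cells are also part of the epithelial cells. Galnt2 has 110 kb of intron, and genotype and processing cannot be told apart in this difference. Of the genes with more than 100 kb of intron, 45.2% were called higher in GOF epithelium. Galnt4 fell by 1.34. Of the folding and secretion genes 1 of 26 rose and 2 fell. The gene that rose was Unc13b, which primes secretory vesicles and has 183 kb of intron, so the same limit holds for it. Among those that fell was Xbp1, a secretory stress factor, at 313 CPM in GOF and 458, 482 and 448 CPM in WT (log2 fold change -0.92, SE 0.21, edgeR adjusted p = 0.0373). Xbp1 has 1.99 kb of intron and Galnt4 0 kb. Genes with at most 5 kb had a median log2 fold change of -0.39 in epithelium, and 8.14% were called lower. For the falls of Xbp1 and Galnt4 too, genotype and processing cannot be told apart. Of sheddases and surface partners 3 of 21 rose and 3 fell, or 14.3% each way, so their rises were near the background of 12.5%. Msln, mesothelin, a binding partner of the Muc16 protein, stood at 127 CPM in GOF and 26.8, 18.3 and 8.93 CPM in WT epithelium (log2 fold change 2.43, SE 0.46, edgeR adjusted p = 0.0222). Ctnnb1 fell by 1.31, which does not check the GOF label because the construct is not described and 3′ ends were counted. Adam9, a sheddase, fell by 1.26 and Jup, plakoglobin, by 1.17 on the log2 scale. In GOF gland cells, Gcnt3 fell to 94.5 CPM, against 560, 178 and 265 CPM in WT gland cells (log2 fold change -2.01, SE 0.49, edgeR adjusted p = 0.0102). Gcnt3 has 2.29 kb of intron, and the same limit holds. Of gland-tested genes with at most 5 kb, 6.27% were called lower, beside 2.69% of all genes.

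**Figure D5:**
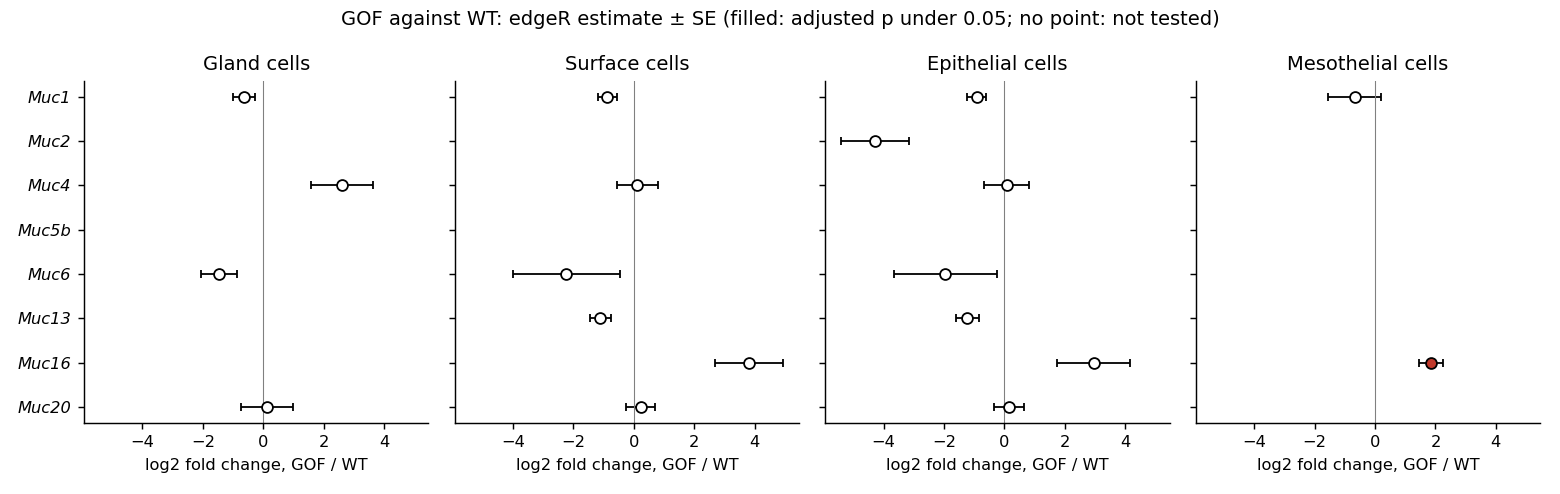
Log2 fold change of each mucin, GOF over WT, in gland, surface, all epithelial and mesothelial cells, with SE bars from edgeR; filled points have an adjusted p under 0.05 and members that could not be tested have no point. Muc16 in mesothelial cells, at 1.85, is the only filled point.

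Mesothelial cells expressed Muc16, the large membrane mucin that carries the CA125 antigen in humans, and little else of the 8. They held 86.5% of the 4919 Muc16 UMIs of GOF and 83.3%, 71.7% and 44.4% of the 270, 113 and 36 Muc16 UMIs of WT. In WT 3 most Muc16 UMIs thus lay outside the mesothelial gate. Muc16 measured 274, 255 and 108 CPM in WT mesothelial cells (mean 212 ± 90.8 CPM, SD, n = 3), against 0.0281, 0.245 and 0 CPM in WT epithelial cells, from 4 UMIs in all. The log2 fold change was 11.39 (SE 0.39, edgeR adjusted p = 1.20e-15), and the pooled ratio was 3376 (exact 95% counting interval 1306 to 12466). Of the 4 epithelial UMIs 3 came from WT 2, and the log2 fold change ran from 10.06 without WT 1 to 12.75 without WT 2. Muc16 passed the low-count filter only through mesothelial cells, so a rise was the only call open to it. Of the 7 members tested 1 rose and 6 fell, where 35.3% of 11362 genes were called, 17.2% higher and 18.1% lower. Muc2, Muc4, Muc6, Muc13 and Muc20, with 0 to 3 UMIs in WT mesothelial cells, passed the low-count filter only through epithelial cells. A fall was the only call open to them, so the counts of rises and falls are not a result about the members. Muc1 measured 9.74, 12.6 and 20.3 CPM in WT mesothelial and 646, 563 and 387 CPM in WT epithelial cells (log2 fold change -5.64). The mesothelial value of Muc1 was of the size seen in fibroblasts, at 22.9, 17.2 and 32.1 CPM in WT. Muc13 had 3 UMIs in WT mesothelial cells (-5.54). Muc2, Muc4, Muc6 and Muc20 had none there, and were at least 7.49-fold, 30.6-fold, 31.9-fold and 10.7-fold lower than in epithelial cells, taking 3 UMIs over the group as the floor. Of the 7, only Muc2 lost its call in any alternative run, with an edgeR adjusted p of 0.0602 without WT 1 and 0.0713 without the library block.

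Mesothelial cells also expressed other sugar enzymes and partners than the epithelium. Of the O-glycosylation genes 4 of 20 tested rose and 12 fell, where 17.2% of all genes rose and 18.1% fell. Chst4, a sulfotransferase, averaged 105 ± 44.4 CPM in WT mesothelial and 2.33 ± 0.974 CPM in WT epithelial cells (SD, n = 3 each), a log2 fold change of 5.46, while Galnt3 and Fut2 had no UMI in mesothelial cells of any WT library and averaged 48.8 ± 13.6 and 43.9 ± 5.15 CPM in epithelial cells. Galnt3 and Fut2 too passed the low-count filter only through epithelial cells. Of the folding and secretion genes 4 of 24 rose and 12 fell, led by Agr2 with 14.5 ± 4.06 CPM in mesothelial and 822 ± 789 CPM in epithelial cells. Of sheddases and surface partners 7 of 20 rose and 7 fell. Lgals1, a galectin, averaged 801 ± 219 CPM in mesothelial and 9.45 ± 9.10 CPM in epithelial cells, and Msn, moesin, which links surface proteins to actin, 87.0 ± 5.00 and 3.21 ± 1.95 CPM. St14, matriptase, averaged 1.86 ± 1.65 CPM in mesothelial and 69.8 ± 21.7 CPM in epithelial cells. With 2.43, 3.15 and 0 CPM in WT mesothelial cells, St14 also passed the low-count filter only through epithelial cells. A fall was the only call open to Galnt3, Fut2 and St14. How many other genes in these counts share this limit was not counted.

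Muc16 rose in GOF mesothelial cells. It measured 892 CPM in GOF, from 4255 UMIs, and 274, 255 and 108 CPM in WT, from 225, 81 and 16 UMIs. The GOF value was over every WT value, and the log2 difference was 1.85 (SE 0.38, edgeR adjusted p = 0.00291), where 13.4% of 8420 genes were called, 9.73% higher and 3.65% lower. Over 10 alternatives the log2 difference ran from 1.63 to 2.07, with edgeR or DESeq2 adjusted p up to 0.0112. After thinning, 74.3% of 280 GOF mesothelial cells had a Muc16 UMI (exact Clopper-Pearson 95% interval 68.7 to 79.3%), against 39.5%, 31.8% and 14.8% of 81, 44 and 27 WT cells, with intervals of 28.8 to 51.0%, 18.6 to 47.6% and 4.19 to 33.7%. Unthinned, the shares were 89.6% in GOF and 75.0%, 61.1% and 39.4% in WT. In lymphoid cells 0.556% of 180 GOF cells and 0 of 71 WT 1 cells had one.

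Other values of these cells are given beside this difference. The tested genes with more than 100 kb of intron, the group of Muc16, had a median log2 fold change of 1.03 in mesothelial cells, 38.8% of them were called higher in GOF, and 292 of 1148, or 25.4%, were at or above the value of Muc16. The difference in read processing and the genotype cannot be told apart for this gene. The summed mesothelial markers were 6297 CPM in GOF and 7522, 7811 and 5559 CPM in WT, within the WT range, with Wt1 at 432 CPM in GOF and 206, 255 and 216 CPM in WT. Of 3 other mesothelial markers, Upk3b stood at 768 CPM in GOF and 1416, 1128 and 940 CPM in WT, Lrrn4 at 312 CPM in GOF and 512, 482 and 575 CPM in WT, and Bnc1 at 93.5 CPM in GOF and 105, 139 and 108 CPM in WT. These 3 were below every WT value in GOF, Wt1 and Upk1b were above every one, and the remaining 3 of the 8 markers (Msln, Gpm6a and Nkain4) lay within the WT range. Fibroblast markers summed to 7787 CPM in GOF and 10134, 10815 and 9150 CPM in WT mesothelial cells, with at least 6 of the 7 detected in each library, and macrophage markers to 1880 CPM in GOF and 909, 3855 and 1961 CPM in WT. Their part in the result was not tested. Muc1 measured 8.60 CPM in GOF and 9.74, 12.6 and 20.3 CPM in WT mesothelial cells and did not pass (edgeR adjusted p = 0.696); the other 6 members were too low to test. Of the pathway genes in these cells, Galnt2 and Unc13b, with 110 kb and 183 kb of intron, rose and Jup fell, and for these rises too genotype and processing cannot be told apart. Galnt2 and Unc13b, at no more than 1.22 and 4.87 CPM in WT, passed the low-count filter only through the GOF library. A rise was the only call open to them.

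The genes most like each mucin were ranked by Pearson's r of log2(CPM + 1) over 47 sums of library and class with at least 20 cells, which share libraries and depth. Muc1 was nearest to Epcam (r = 0.90), a gate marker, Tm4sf4 (0.90) and Pigr (0.89). Muc2 was nearest to Clca1 (0.95), itself a goblet gate marker, Reg4 (0.91) and Fer1l6 (0.90). Only 1 goblet-type sum, the 23 cells of WT 1, is among the 47, so the values for Muc2 rest largely on that sum. Muc4 was nearest to Atp10b, Pls1 and Plch1 (0.87, 0.87 and 0.86) and Muc13 to Hsd17b2, Atp10b and Slc34a2 (0.80, 0.78 and 0.78), with Atp10b in both lists. Muc6 was nearest to Vsig1 (0.80), 2310057J18Rik (0.78) and Obp2b (0.75), and Muc20 to Arhgef38, Proc and S100g (0.84, 0.83 and 0.83). Muc16 was nearest to Pcnx2 (0.93), Cntnap3 (0.92) and Cybrd1 (0.90).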

How the data were processed

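The common bile duct was dissected whole and dissociated with proteases, and its cells were captured with the 10x 3′ v3 kit, per the labels' protocols. The deposited values are raw counts of UMIs, by gene and barcode, made by the authors with Cell Ranger (7.1 and the mm10 genome per the submitters' processing notes, 7.0.0 for GOF and 3.0.2 for WT per the file headers). No source used here states the intron or strand setting.

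Barcodes passed with 500 or more genes and no more than 25% mitochondrial UMIs, leaving 9229 GOF cells and 4334, 2415 and 2058 WT cells after the highest-scoring cells by Scrublet (scanpy 1.11.5; 0.8% per 1000 barcodes) were left out as doublets (872 in GOF; 228, 65 and 45 in WT). Scrublet's own threshold marked 283 in GOF and 0, 2 and 9 in WT. Each cell took the class whose summed markers scored highest by a margin of 0.1, and epithelial cells were then gated on within-library z scores of at least 0.75, with no mucin among the markers. Gate thresholds were set after the data, mucin values included, had been seen, from marker levels and mucin-free clusters. The members and lists were also chosen with earlier results of these data known.

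UMIs were summed per library and class of at least 20 cells and tested with edgeR 4.0.16 in R 4.3.3 (TMM, filterByExpr, quasi-likelihood, two-sided, Benjamini-Hochberg over all genes, threshold 0.05), and the scripts were tested on simulated data. SEs were derived from the log2 fold change and the F statistic. Classes of one WT library come from the same cells' preparation, so the library was a block within WT; GOF against WT has 2 residual degrees of freedom and no block. Named pathway genes were, per comparison, the 6 strongest called rises and falls among genes that reached 20 CPM in either group. Alternatives were DESeq2 1.42.0, its size factors, no TMM, no low-count filter, each library left out, doublets kept, at most 10% mitochondrial UMIs and a stricter gate. Classes from clusters and the test on genes with at most 5 kb of intron (GENCODE vM21, 30329 of 30406 genes matched) were added after seeing the data.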

Additional observations from a re-analysis of the deposited data

How the results depend on the processing

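Of 5025 alternative values of single named genes, 4745 stayed on their side of the threshold (direction was compared only where a value was called, and some uncalled values changed sign, such as Muc6 in epithelium without WT 3), 127 lost a call, 152 gained one and 1 reversed: Sytl2 in gland against surface cells, -0.22, was 1.22 with classes from clusters. The cause of the changes below was not tested, except that a test on fewer genes or libraries can call fewer. Gland against surface in WT called 589 genes, 367 in DESeq2, and 221 without the library block, which pairs classes of one library. Without the block Muc4 (adjusted p = 0.0638 in edgeR) and, in mesothelial cells, Muc2 (0.0713) lost their calls, and no other mucin did. Mesothelial against epithelial called 4013, and 1858 at 10% or less mitochondrial UMIs. GOF against WT called 2666 in epithelial, 798 in gland, 2593 in surface and 1126 in mesothelial cells. On genes with at most 5 kb of intron these counts were 122, 82, 158 and 192. DESeq2 called 329 in gland and 274 in mesothelial cells, and classes from clusters gave 1645 in gland cells. The gland minus surface difference called 34 genes, 1 in DESeq2, 22 with the stricter gate and 3 from clusters. Leaving out a WT library gave 1223 to 3396 (epithelial), 536 to 964 (gland), 1610 to 3367 (surface), 870 to 1876 (mesothelial) and 14 to 66 (difference), and within WT 445 to 876 (gland against surface) and 2828 to 4040 (mesothelial against epithelial). GOF against WT had no replicate block, because every library is of a single genotype and no label pairs the GOF library with a WT library. At 1000 UMIs and unthinned, cells with a Muc6 UMI were 34.9% and 61.6% of GOF gland cells, and 54.1% of WT gland cells at 1000 (WT values here are means of the 3 libraries). Muc16 was seen in 55.6% and 89.6% of GOF mesothelial cells, and in 58.5% of WT ones unthinned. Muc1 was seen in 30.8% and 81.7% of GOF and 40.7% and 80.7% of WT surface cells. The limit of 10% mitochondrial UMIs was not run for gland comparisons, nor the stricter gate for mesothelial ones, where too few cells were left. Depth limits Muc5b in all libraries and Muc4, Muc13 and Muc20 in WT gland cells, which rest on 4, 4 and 15 UMIs in all.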

Other observations

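Levels of other mucin genes are given here for the classes named. Muc3, an intestinal membrane mucin, measured 1.17 CPM in GOF and 0, 0 and 4.49 CPM in WT gland cells, against 25.8 CPM in GOF and 46.5, 90.1 and 42.2 CPM in WT surface cells. In WT it fell in gland cells by 5.00 on the log2 scale (edgeR adjusted p = 3.33e-05), the direction of Muc4 and Muc13. Goblet-type cells held 83.3 CPM of Muc3 in GOF and 120, 494 and 42.5 CPM in WT. Muc3a measured 0 CPM in GOF goblet-type cells and 54.1, 39.0 and 72.8 CPM in WT ones. Emcn, endomucin, an endothelial sialomucin, measured 701 CPM in GOF and 707, 535 and 308 CPM in WT blood endothelial cells. Lymphatic endothelial cells had 428 CPM of Emcn in GOF and 318 to 369 CPM in WT. Mcam, an adhesion glycoprotein, measured 193 CPM in GOF and 423, 379 and 242 CPM in WT smooth muscle cells and pericytes, of which WT 1 had 8. Cd164, a sialomucin of many cell types, was found in surface cells at 148 CPM in GOF and 190, 184 and 212 CPM in WT.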
